A study of Mus musculus with 2 samples.

Results

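Peaks of the transcription factor Runx1 that stood in groups of exactly 2 along the mouse genome were examined. Peaks on chromosomes 1 to 19 and X were sorted by midpoint, neighbours whose midpoints lay at most 20 kb apart were chained, and chains of exactly 2 peaks were kept. This gave 825 pairs, or 1650 of the 6792 peaks in the list (24.3%, Wilson 95% interval 23.3 to 25.3%). The members were thus chosen by the called positions themselves, so that the grouping and the number of pairs are a description and carry no test. A pair was called close when the gap between its intervals was at most 2 kb, and distant otherwise. There were 227 close pairs with 454 peaks (27.5% of pairs, 24.6 to 30.7%) and 598 distant pairs with 1196 peaks.

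The peaks came from chromatin immunoprecipitation and sequencing in BMiFLT3(15-3), a pro-B-cell line derived from a murine BCP-ALL (B-cell precursor acute lymphoblastic leukaemia) and transduced with Runx1-ERt2, a Runx1 fusion that enters the nucleus when tamoxifen is given. The 2 libraries, 1 made with a rabbit antibody to a C-terminal peptide of Runx1 and 1 with a rabbit IgG control, shared this cell line and this transgene, so there was no library without the fusion. The protocol names 0.2 µM tamoxifen or ethanol for 24 h, and the labels do not say which of them either library received. Peaks bound by the cells' own Runx1 and by the fusion cannot be told apart, and a list of positions holds no marker genes against which to check the cell type.

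Core-binding factor is a dimer in which Runx1 makes the contact with DNA through its Runt domain, and the partner Cbfb, which does not touch DNA itself, strengthens that contact. Runx1 is required for the formation of definitive blood stem cells, and in the B lineage it acts at the pro-B stage together with factors such as Ebf1 and Pax5. Enhancers and promoters of blood-cell genes often hold more than one Runx site, and neighbouring peaks may lie in one regulatory element or in separate ones. A list of intervals does not distinguish these.

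Small gaps were the most frequent within pairs. The gap had a median of 5154 bp over all pairs, with quartiles of 1823 and 10687 bp and a range of 1 to 19302 bp. Per kb of gap there were 200 pairs at gaps up to 250 bp, 160 at 250 to 500 bp, 108 at 500 to 1000 bp, 83 at 1 to 2 kb, 59.7 at 2 to 5 kb, 39 at 5 to 10 kb, 26.6 at 10 to 15 kb and 18.2 at 15 to 20 kb. The number of pairs per kb thus fell at each step away from the smallest gaps. The last step is partly set by the rule, since midpoints at most 20 kb apart leave gaps somewhat below that.

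Among close pairs the gap had a median of 693 bp (quartiles 291 and 1400 bp). The labels' protocols state a size selection of 350 to 550 bp for the sequenced fragments. The gap was under 350 bp in 68 close pairs (30.0%, Wilson 95% interval 24.4 to 36.2%) and under 550 bp in 95 (41.9%, 35.6 to 48.4%). All fragments of the stated sizes were thus longer than the space between the peaks of the 68 pairs, and only the longer ones for the others of the 95. Whether such a pair is 1 bound region reported as 2 intervals was not tested. From the start of the first to the end of the second peak, close pairs spanned a median of 2448 bp, with the longest at 4825 bp, and distant pairs a median of 9629 bp.

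**Figure D1:**
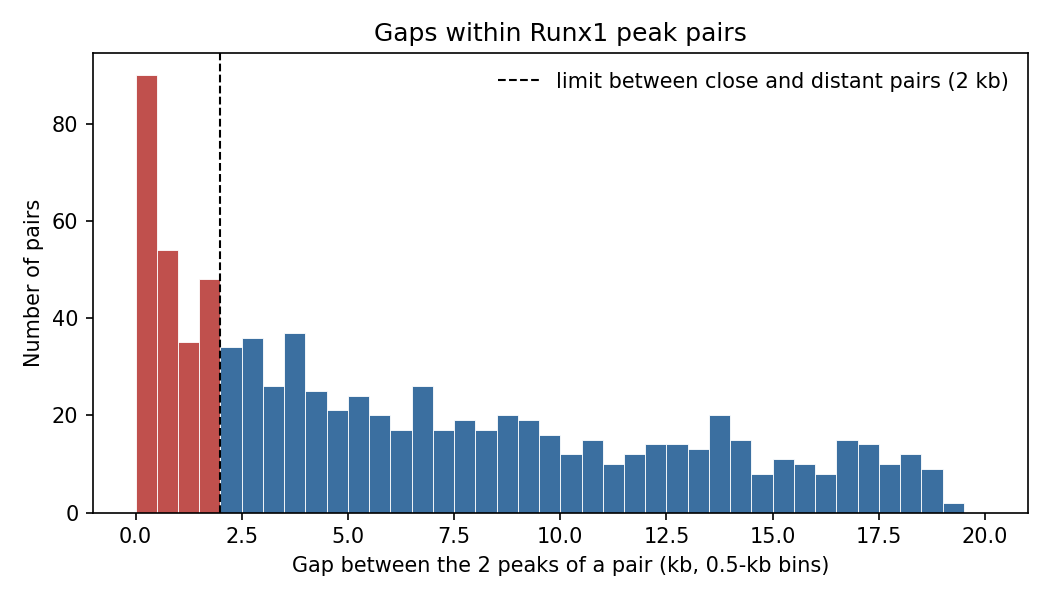
Number of pairs (y axis) by the gap between the 2 peaks of a pair (x axis, kb, in bins of 0.5 kb), with close pairs in red, distant pairs in blue and the 2-kb limit dashed. The first bin holds 90 pairs, the second 54, and no later bin holds more than 48.

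Peaks of close and of distant pairs had similar scores. Scores were deposited by the authors as the peak caller wrote them, on a scale that is not stated, and serve here only to set peaks of this list side by side. The lowest score on these chromosomes was 50.03. Ratios of scores are limited by that lower end and cannot be read as ratios of binding. Close-pair peaks had a median score of 123 (95% interval of the median 113 to 136, n = 454 peaks) with quartiles of 77.3 and 221. Distant-pair peaks had a median of 118 (112 to 124, n = 1196 peaks) with quartiles of 73.3 and 209. Each median lay within the interval of the other class. With chains of up to 50 kb it did not: the medians were then 128 in close pairs (114 to 139) and 112 in distant pairs (106 to 116). The close median also lay above the distant interval with a close gap of 1 kb and with peaks chained by gap. The intervals rest on the order of the values alone, treat peaks as independent, and cover counting error only.

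The upper and lower parts of the score range were also alike between the classes. A score of at least 100 was reached by 60.8% of close-pair peaks (Wilson 95% interval 56.2 to 65.2%) and 58.4% of distant-pair peaks (55.6 to 61.2%), against 55.0% of all peaks in the list. A score of at least 200 was reached by 28.2% (24.3 to 32.5%) and 26.5% (24.1 to 29.1%), against 23.6% of all peaks. For a score of at least 500 the shares were 3.52% (2.18 to 5.65%) and 3.85% (2.90 to 5.09%), against 3.37%. Near the lower end of the list, 57 close-pair peaks (12.6%, 9.82 to 15.9%) and 146 distant-pair peaks (12.2%, 10.5 to 14.2%) scored under 60, where 13.5% of all peaks lay. Both peaks scored under 60 in 13 of the 825 pairs, 3 of them close.

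Pair peaks stood between isolated peaks and peaks of larger groups in score. The median was 99.8 for the 3618 isolated peaks (95% interval 97.0 to 102), 120 for the 1650 pair peaks (115 to 125) and 129 for the 1521 peaks in groups of 3 or more (123 to 139). The interval of the pairs did not meet that of isolated peaks, and it met that of the larger groups. Scores of at least 100 were found in 49.9% of isolated peaks (48.3 to 51.5%), 59.1% of pair peaks (56.7 to 61.4%) and 62.5% of peaks in larger groups (60.1 to 64.9%). These shares describe a grouping built from the same peaks, and no test was made of them. Ranked by score, the top 100 peaks included 37 in pairs, 37 in larger groups and 26 that were isolated. The Wilson 95% intervals were 28.2 to 46.8% for pairs and for larger groups, and 18.4 to 35.4% for isolated peaks. In the whole list of 6792 peaks these classes held 1650, 1521 and 3618.

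Widths were similar too, in an order that depended on the 2-kb limit. Close-pair peaks had a median width of 788 bp (95% interval 772 to 808 bp) with quartiles of 688 and 903 bp. Distant-pair peaks had a median of 795 bp (782 to 806 bp) with quartiles of 688 and 906 bp. With pairs called close up to a gap of 5 kb the order turned, to 805 bp in close pairs (789 to 818 bp) and 781 bp in distant pairs (773 to 795 bp), and neither median lay within the other's interval. Isolated peaks were somewhat narrower, at 774 bp (768 to 780 bp), and peaks in groups of 3 or more somewhat wider, at 813 bp (803 to 822 bp). Among the pairs the widest peak measured 1989 bp and the narrowest 329 bp, and both belonged to close pairs.

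**Figure D2:**
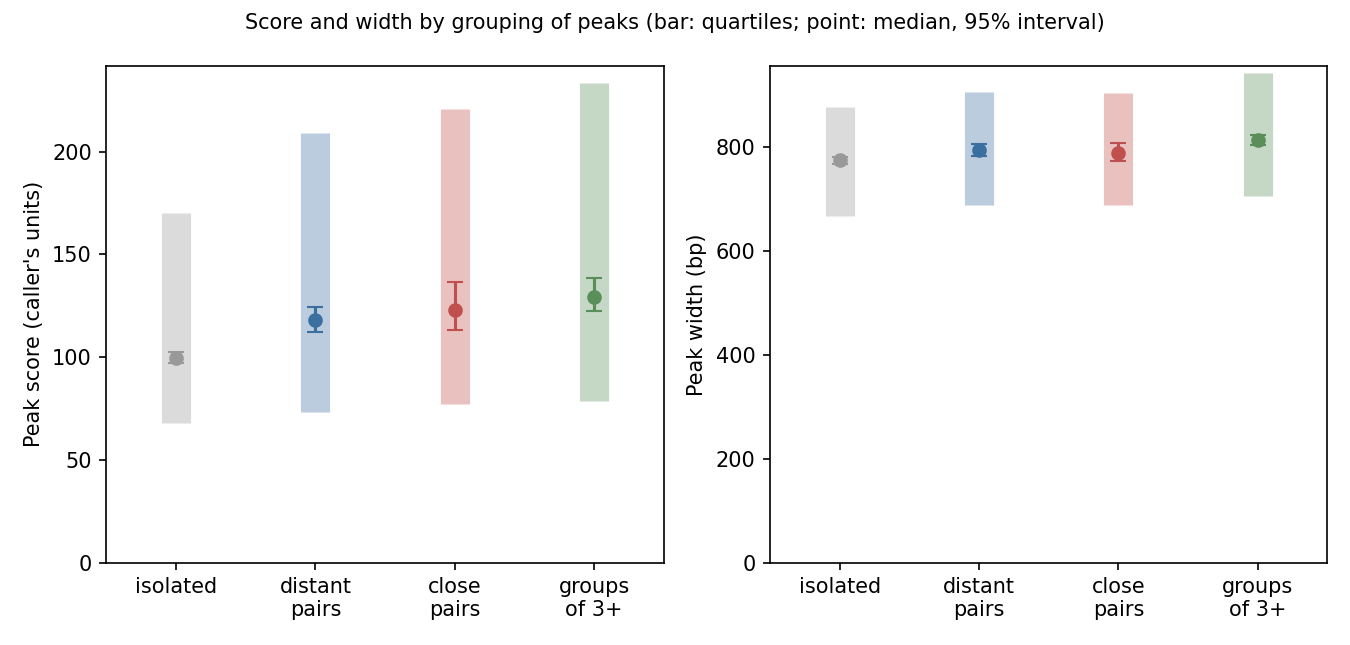
Peak score (left, in the caller's units) and peak width (right, bp) for isolated peaks, distant pairs, close pairs and groups of 3 or more; shaded bars run between the quartiles, points are medians and whiskers their 95% intervals. Close and distant pairs sit side by side at medians of 123 and 118 in score and 788 and 795 bp in width.

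Score and width went together over the peaks of both classes. Spearman's rho between them was 0.53 over close-pair peaks (n = 454) and 0.48 over distant-pair peaks (n = 1196), given as a description over peaks of the same libraries. Score was therefore also compared within 4 equal-sized groups of pair peaks by width. In the narrowest group, up to 688 bp, the median was 82.6 for close pairs (95% interval 77.3 to 94.1) and 75.1 for distant pairs (69.7 to 82.0). In the second group the order was the other way, 94.5 (80.9 to 112) against 103 (95.2 to 115). In the third the medians were 132 (115 to 153) and 129 (117 to 139). In the widest, from 906 to 1989 bp, they were 240 (194 to 273) and 211 (191 to 231). The intervals of close and distant pairs overlapped in each of the 4 groups. In the narrowest group, however, each median lay outside the interval of the other class. In the widest group the close median lay above the distant interval, and in the second group it lay below it. The close median was the higher one in every group except the second.

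The score of one peak of a pair said little about the score of the other, at either distance. The ratio of the stronger to the weaker score had a median of 1.88 in close pairs (95% interval 1.74 to 2.04, n = 227) and 1.91 in distant pairs (1.83 to 2.01, n = 598). The scores lay within 1.5-fold of each other in 63 close pairs (27.8%, Wilson 95% interval 22.3 to 33.9%) and 197 distant pairs (32.9%, 29.3 to 36.8%). They differed by more than 3-fold in 53 close pairs (23.3%, 18.3 to 29.3%) and 154 distant pairs (25.8%, 22.4 to 29.4%). A difference of more than 5-fold was seen in 16 close pairs (7.05%) and 56 distant pairs (9.36%). The intervals of the classes overlapped in each of these shares.

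Spearman's rho between the score of the left and the right peak was 0.059 over the 227 close pairs and 0.060 over the 598 distant pairs. The points share both libraries, and the correlations are a description. As a plainer measure, the partner was looked up for strong and weak peaks in turn. In close pairs the partner scored at least 100 for 60.9% of peaks that did so themselves (168 of 276) and for 60.7% of peaks that did not (108 of 178). In distant pairs these shares were 58.4% (408 of 699) and 58.6% (291 of 497). At a limit of 200 the partner passed for 28.1% of peaks at or above it and 28.2% of peaks below it in close pairs, and for 29.0% and 25.6% in distant pairs.

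**Figure D3:**
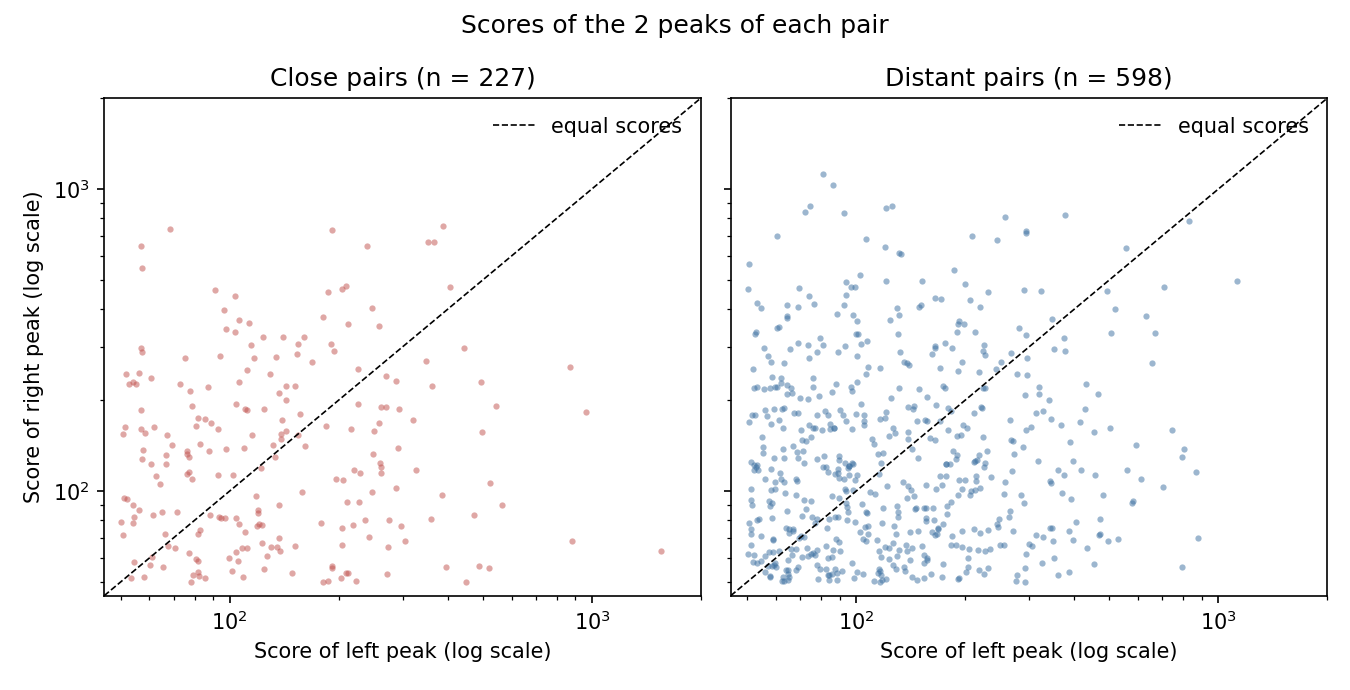
Score of the right peak against score of the left peak of each pair (both axes log scale), with the 227 close pairs on the left and the 598 distant pairs on the right; each point is 1 pair and the dashed line marks equal scores. Both peaks scored at least 500 in 0 close and 2 distant pairs, so the upper right of each panel is nearly empty. Spearman's rho was 0.059 and 0.060.

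Neighbours that were not paired also had scores with a low rank correlation. Among 2719 instances of isolated peaks that followed each other on a chromosome, a median gap of 174438 bp apart, rho between their scores was 0.025. Over 1104 steps between neighbours within groups of 3 or more it was -0.0086. On ranks, where 100 points span the list, the 2 peaks of a pair were a median of 28.3 points apart in close pairs (95% interval 25.4 to 32.3), 29.6 in distant pairs (26.8 to 32.4), 27.3 between consecutive isolated peaks (26.2 to 28.5) and 28.7 within larger groups (26.7 to 30.3). As a ratio, consecutive isolated peaks were closer in score than paired ones, with a median of 1.71 (1.68 to 1.75), and their scores also covered a narrower range, with quartiles of 68.1 and 170. Steps of at most 2 kb were as frequent within larger groups as among the pairs, 302 of 1104 (27.4%, Wilson 95% interval 24.8 to 30.1%).

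Widths had a higher rank correlation in close pairs. The Spearman correlation between the widths of the left and right peak was 0.18 over close pairs and 0.029 over distant pairs. Within groups of 3 or more it was 0.17 over 302 steps of at most 2 kb and 0.070 over 802 longer steps. No intervals were computed for these width correlations, and they were not recomputed with other limits of gap, chain or score. Whether the classes differ in them was not tested. The wider peak was 1.22 times as wide as the narrower in the median close pair (95% interval 1.20 to 1.26) and 1.24 times in the median distant pair (1.22 to 1.27), so that on this measure the classes were alike. The stronger peak was also the wider in 146 close pairs (64.3%, 57.9 to 70.3%) and 398 distant pairs (66.6%, 62.7 to 70.2%). It stood on the left in 115 close pairs (50.7%, 44.2 to 57.1%) and 306 distant pairs (51.2%, 47.2 to 55.2%).

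Finer steps of gap showed no steady course in score. The median score of pair peaks was 128 at gaps up to 250 bp (95% interval 104 to 156, 50 pairs), 134 at 250 to 500 bp (96.3 to 160, 40 pairs), 128 at 500 to 1000 bp (112 to 164, 54 pairs) and 118 at 1 to 2 kb (102 to 136, 83 pairs). Beyond the 2-kb limit it was 123 up to 5 kb (108 to 136, 179 pairs), 113 up to 10 kb (104 to 124, 195 pairs), 123 up to 15 kb (112 to 135, 133 pairs) and 116 above that (96.7 to 145, 91 pairs). All 8 intervals overlapped. Agreement within the pair was highest in 1 step, the 40 pairs with gaps of 250 to 500 bp, where rho was 0.37 and the median ratio 1.69 (1.496 to 1.947). In the neighbouring steps rho was 0.054 and 0.062, and the step is 1 of 8 that were looked at. Width had its highest median at gaps of 2 to 5 kb, 823 bp (804 to 831 bp), and was 768 bp (713 to 825 bp) at the smallest gaps.

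**Figure D4:**
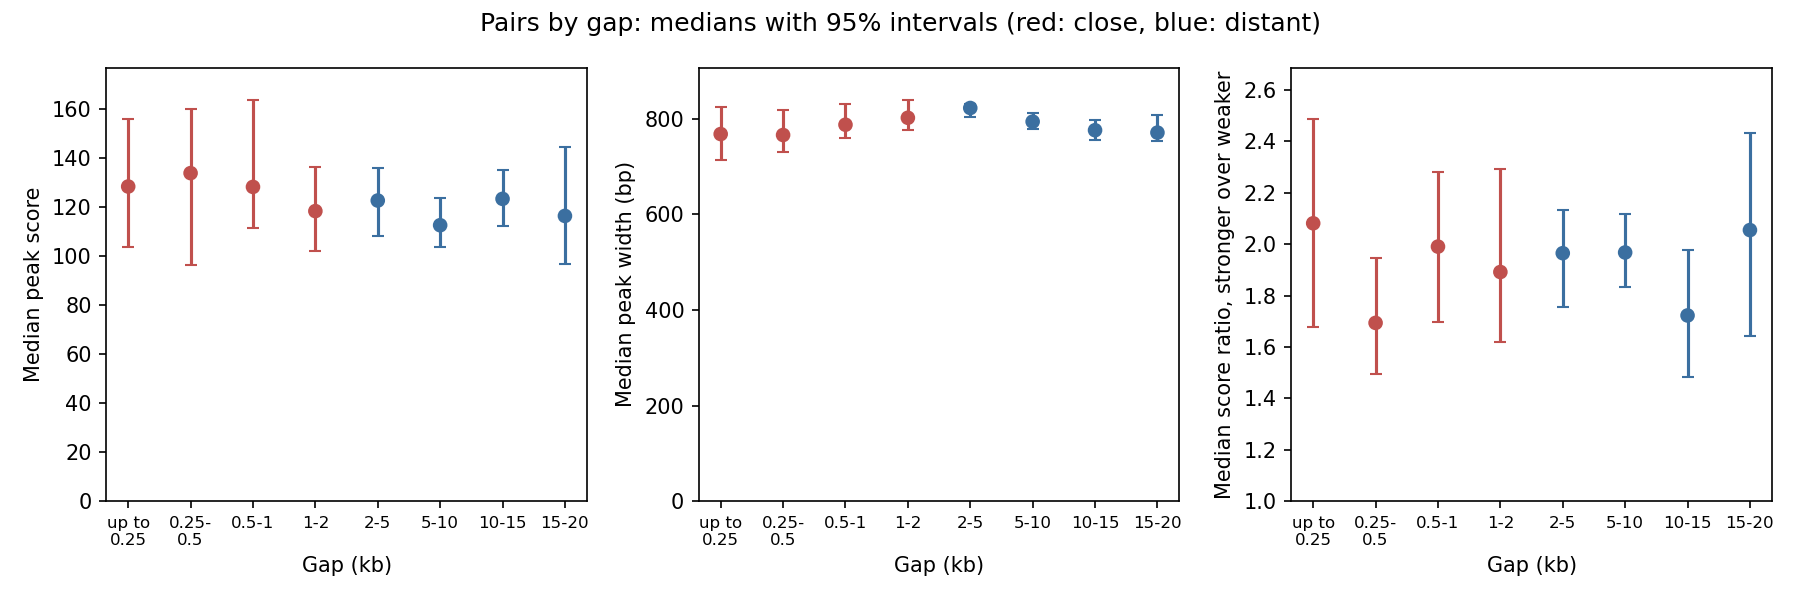
Median peak score (left), median peak width in bp (centre) and median ratio of stronger to weaker score within a pair (right) for pairs in 8 steps of gap (x axis, kb), with 95% intervals as whiskers, close pairs in red and distant pairs in blue. The score medians run from 113 to 134 and the ratio medians from 1.69 to 2.08, without a steady rise or fall with the gap.

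The strongest pairs by the score of their weaker peak were distant, the class that held 72.5% of all pairs. On chromosome 2, peaks at chr2:131849590-131850455 and chr2:131854088-131855836 (mm9, counted from 1 as are all positions here) scored 826.49 and 784.54 across a gap of 3632 bp. On chromosome 3, chr3:105697367-105698483 and chr3:105702956-105704366 scored 556.28 and 636.93 across 4472 bp. These were the 2 pairs of the list in which both peaks scored at least 500. They were 2 of 598 distant pairs (Wilson 95% interval 0.092 to 1.21%), against 0 of 227 close pairs (0 to 1.66%), and these intervals overlapped. The ratio of scores was 1.05 in the first and 1.14 in the second, and in the first the right peak was 1749 bp wide and the left 866 bp.

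The next 2 distant pairs had longer gaps and less equal scores. On chromosome 2, chr2:158544482-158545499 scored 1123.44 and chr2:158558797-158560561 scored 494.27, with 13297 bp between them. On chromosome 11, chr11:74368493-74370115 scored 708.72 and chr11:74385961-74386866 scored 475.09, with 15845 bp between them. In the chromosome 2 pair the peak with the lower score was the wider one, 1765 bp against 1018 bp. The fifth distant pair lay on chromosome 19, where chr19:61156235-61157206 and chr19:61159741-61161043 scored 493.39 and 460.16 across 2534 bp.

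Among close pairs the weaker peak reached at most 406.21. That pair lay on chromosome 3, with chr3:37702927-37703784 at 406.21 and chr3:37704340-37705435 at 472.38, 555 bp apart. On chromosome 8, chr8:87504643-87505520 scored 388.05 and chr8:87505818-87507222 scored 755.34, 297 bp apart. On chromosome 1, chr1:157554535-157555399 scored 365.71 and chr1:157555602-157556982 scored 668.29, 202 bp apart. These pairs have a similar shape, with a weaker and narrower left peak of 858 to 878 bp and a right peak of 1096 to 1405 bp.

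The remaining strong close pairs were on chromosomes 11 and 2. On chromosome 11, chr11:97003111-97004103 scored 352.78 and chr11:97004392-97005794 scored 668.78, 288 bp apart. On chromosome 2, chr2:166625464-166626626 scored 441.94 and chr2:166626660-166627690 scored 296.3, 33 bp apart. In these 5 close pairs the ratio of scores ran from 1.16 to 1.95, and 4 of the 5 gaps were under 350 bp. Over all 227 close pairs the gap was under 350 bp in 68 (30.0%), and rho between gap and weaker score was -0.083.

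Other pairs set a very strong peak beside one near the lower end of the list. The most unequal was a close pair on chromosome 19. Its left peak, chr19:18680628-18681745, scored 1547.5 and was the only pair peak among the 10 highest-scoring peaks of the list, while chr19:18683231-18683743, 1485 bp away, scored 63.46, a ratio of 24.4. On chromosome 15, chr15:103087921-103089359 scored 883.42 and chr15:103090294-103091126 scored 68.22, 934 bp apart. On chromosome 9, chr9:50343811-50344503 scored 56.87 and chr9:50345109-50345962 scored 647.28, 605 bp apart. No other peak lay within 500 kb of the chromosome 15 pair.

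The most unequal distant pairs had ratios of 12.5 to 14.1. On chromosome 2, chr2:29725063-29726320 scored 790.92 and chr2:29733694-29734382 scored 56.03, 7373 bp apart. Both others lay on chromosome 17, less than 1 Mb from each other. There chr17:28336576-28337421 scored 80.88 and chr17:28341649-28343208 scored 1118.5, and chr17:27724644-27725700 scored 875.41 and chr17:27728614-27729194 scored 69.89. In all 3 the weaker peak was the narrower one.

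Across all pairs the stronger peak scored at least 500 in 60, of which 16 were close. Their partner scored a median of 144 in close pairs (95% interval 63.5 to 258, n = 16) and 130 in distant pairs (109 to 187, n = 44). The partner scored under 60 in 3 of the 16 close pairs and 2 of the 44 distant pairs. With so few close pairs the Wilson 95% intervals of these shares, 6.59 to 43.0% and 1.26 to 15.1%, overlapped. Among all peaks in the list 13.5% scored under 60, and among pair peaks 12.3%, values that lie inside both intervals.

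The closest intervals in any pair were almost in contact. On chromosome 8, peaks at chr8:125032456-125033166 and chr8:125033168-125033753 were separated by 1 bp and scored 118.08 and 96.12. On chromosome 18, chr18:61250350-61251384 and chr18:61251388-61252071 were separated by 3 bp and scored 961.64 and 181.92. On chromosome 19, chr19:37183288-37184934 and chr19:37184952-37185872 were separated by 17 bp and scored 247.2 and 404.28. Gaps under 100 bp were found in 27 pairs in all. In the chromosome 19 pair the wider peak, at 1647 bp, had the lower score.

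The pairs nearest to each limit of the rule were as follows. Just inside the 2-kb gap were a pair on chromosome 9 (gap 1988 bp, scores 216.14 and 159.81) and a pair on chromosome 12 (1987 bp, 101.64 and 54.16). Just outside it were a pair on chromosome 16 (2005 bp, 130.18 and 84.93) and a pair on chromosome 6 (2014 bp, 226.27 and 63.47). Just inside 20 kb between midpoints were a pair on chromosome 4 (19961 bp, 161.82 and 72.9) and a pair on chromosome 13 (19947.5 bp, 182.41 and 183.48). Just outside were neighbours on chromosome 10 (20027.5 bp, 150.79 and 169.96) and on chromosome 3 (20031 bp, 202.25 and 152.09), which count as isolated.

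Every autosome had pairs, as did X. Autosomes held between 21 pairs (chromosome 13) and 81 (chromosome 2). The share of an autosome's peaks that stood in pairs ran from 18.8% on chromosome 17 (Wilson 95% interval 15.0 to 23.4%) to 30.4% on chromosome 3 (25.3 to 36.0%). These are the extremes of 19 values that follow from the rule, and nothing is read from their difference. Close pairs made up between 19.0% of pairs, on chromosomes 10 and 13, and 38.5%, on chromosomes 8 and 19. The intervals around those extremes overlapped, at 9.98 to 33.3% for chromosome 10 and 24.9 to 54.1% for chromosome 8.

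Median scores by chromosome gave no constant order of the classes. Close-pair peaks had the higher median on 11 autosomes and the lower on 8. The widest differences in each direction were on chromosomes 6 and 7, and rest on few close pairs. On chromosome 6 the medians were 189 for close (12 pairs) and 112 for distant pairs (29 pairs). On chromosome 7 they were 80.1 (10 pairs) and 133 (42 pairs). Chromosome 18 had the highest median over its pair peaks, 169 (95% interval 112 to 189, 22 pairs), and chromosome 16 the lowest among autosomes, 106 (85.2 to 132, 35 pairs). X held 2 pairs, both distant. Their peaks scored 52.05 and 122.32 in the first and 140.97 and 59.1 in the second, so each joined a peak near the lower end of the list to a stronger one.

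**Figure D5:**
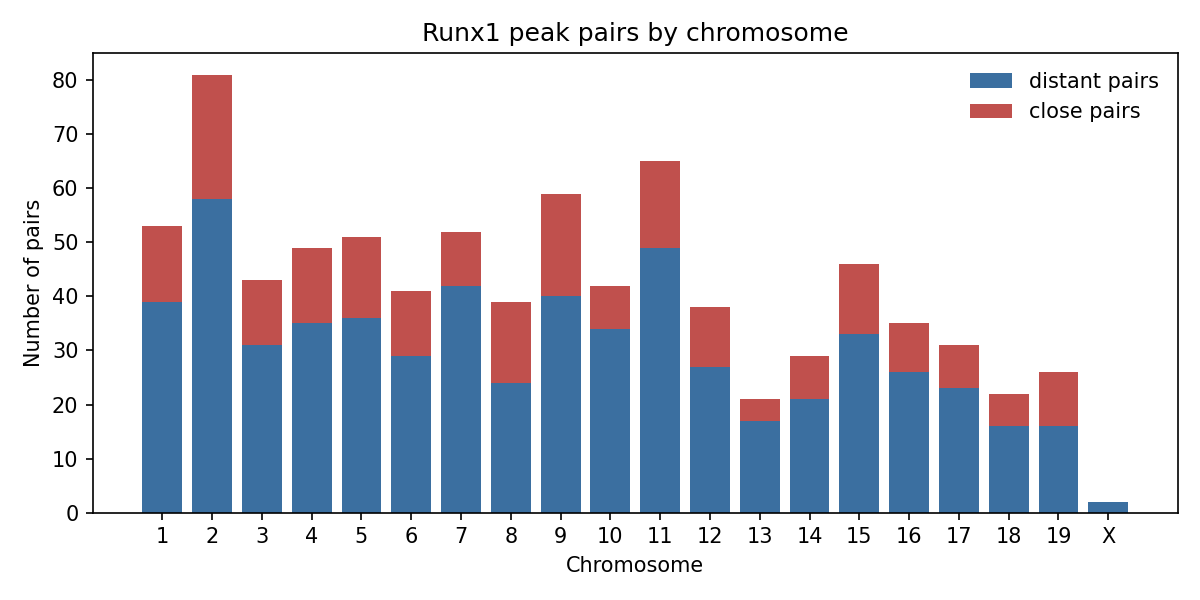
Number of pairs on each chromosome (y axis), stacked as distant pairs (blue) and close pairs (red). Chromosome 2 has 81 pairs and chromosome 13 has 21, the fewest of the autosomes, and X has 2, both distant.

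The surroundings of close and distant pairs were alike. The nearest peak outside the pair lay a median of 67.1 kb from a close pair (95% interval 56.2 to 81.8 kb) and 65.9 kb from a distant pair (58.9 to 72.3 kb). Within 500 kb of the pair's centre there were a median of 6 other peaks for close pairs (5 to 7) and 5 for distant pairs (5 to 6). Isolated peaks also had a median of 5 (5 to 5). The highest number was 29 around a close pair and 28 around a distant one.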

How the data were processed

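The data were 1 Runx1 and 1 IgG library, and the file analysed was the list of peaks the authors called on both, per the file header. Software named in the submitters' processing notes was MACS 1.4.01, Bowtie 0.12.8 and CASAVA 1.8.2, on build mm9, without settings. Settings for duplicates and tag shift were not given in the sources used here. The deposited value per peak is the score, whose scale is not stated. Read depth is unknown, so weak peaks may be missing. Each arm had 1 library, so there was no replicate and no test. The 3 peaks that did not lie on chromosomes 1 to 19 or X were left out of the chains.

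Chains, gaps (bases between intervals), medians and Spearman's rho were computed with scipy 1.17.1, pandas 2.3.3 and numpy 2.4.6 under Python 3.11.15. Plots used matplotlib 3.10.9. Shares have Wilson 95% intervals and medians exact binomial order-statistic 95% intervals, for counting error only. The counting was tested on simulated data. Pairs named in full are the 5 of each class with the highest weaker score, the 3 of each with the largest score ratio, the 3 smallest gaps, and 2 on each side of each limit. The X pairs were added after their values were seen. The members and the comparisons were chosen with earlier results of these data known. Gene annotation was at hand for GRCm38.p6 only, so peaks were not assigned to genes and no sequence was read. The gene lists drawn up for that purpose were therefore not used. Alternatives were other score limits, chain distances of 10 and 50 kb, close gaps of 1 and 5 kb, merging within 500 bp, leaving out peaks wider than 5 kb, and chaining by gap.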

Additional observations from a re-analysis of the deposited data

How the results depend on the processing

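Of 171 values recomputed under 9 alternatives, 124 stayed within the interval of the reported value, or within 1.5 times for a count, and 47 moved. Not all of these could move. Another close gap does not enter the number of pairs or the values for all pairs, isolated peaks, larger groups and named pairs. Chaining by gap moved none, though the close median score, 124, then lay above the distant interval (110 to 123). Leaving out peaks wider than 5 kb moved none either, but it could remove no pair peak, since the widest measured 1989 bp. Peaks in larger groups reached 2778 bp, so only isolated peaks were removed. Stricter score limits moved most values, since they leave fewer peaks and raise scores by construction. With a score of at least 100 there were 455 pairs (120 close, 335 distant), and with scores at or above the list's median 407 (107 close, 300 distant). Median scores were then 195 and 214 in close, 192 and 202 in distant, 193 and 205 in all pairs, 172 and 186 in isolated peaks and 206 and 219 in groups of 3 or more. Median widths were 858 and 863 bp in close and 865 and 867 bp in distant pairs, and median score ratios 1.72 and 1.68 in close and 1.70 and 1.66 in distant pairs. The share at a score of at least 100 was 100% in both classes by construction. The Spearman correlation within distant pairs changed sign to -0.080 and -0.053. At a score of at least 100 rho also turned to -0.015 in close pairs and -0.022 between isolated neighbours, so no sign of agreement is given for any of them. The cause was not tested.

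Close pairs numbered 141 with chains of 50 kb, 144 and 406 with gaps of 1 and 5 kb, and 150 after merging within 500 bp. Their share of pairs was 39.6% and 17.8% with chains of 10 and 50 kb, 17.5% and 49.2% with gaps of 1 and 5 kb, and 19.0% after merging. Another chain distance and merging change what counts as a pair, and another gap changes only what counts as close. Median width of distant pairs was 809 bp with chains of 10 kb, against 798 bp in close pairs, and 781 bp with a close gap of 5 kb, against 805 bp in close pairs, where the order turned. After merging it also turned, at 802 bp in distant and 808 bp in close pairs, and with chains of 50 kb the medians were 786 and 787 bp. With chains of 50 kb, 55.5% of distant-pair and 61.7% of close-pair peaks scored at least 100. Median scores were then 128 in close and 112 in distant pairs, each outside the other's interval, and 114 in all pairs and 95.7 in isolated peaks. With a close gap of 1 kb they were 130 in close and 118 in distant pairs, where the close median lay above the distant interval (112 to 124). The close median score was the higher one in the main setting and in every alternative. Of the 10 pairs named for their weaker score, 6 remained pairs with chains of 50 kb and 6 after merging within 500 bp. The values for all pairs, isolated peaks, larger groups and named pairs were chosen for this comparison after seeing the data. No replicate could be left out, and no paired analysis was possible because each arm had 1 library. Without read numbers, the depth behind weak peaks is unknown.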
